A study of Arabidopsis thaliana with 16 samples.

Results

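The genes described here stood higher in Arabidopsis roots after either of 2 single treatments, the synthetic auxin NAA or the inhibitor of protein synthesis cycloheximide (CHX). They were selected on the arrays of 3 groups, mock, NAA and CHX. A probe set, the group of probes that reports 1 transcript, was a member when its mean of log2(intensity + 16) was at least 1.5 higher with NAA than with mock, at least 1.5 higher with CHX than with mock, and its mean NAA intensity was at least 100. Genes with symbols starting IAA, GH3, LBD, PUB, XTH, EXP or EXL were left out, as were PUCHI, WES1, STZ and AT4G37295. In all, 106 of 22746 probe sets were members. Of these, 54 have exactly 1 listed gene, all of them different genes. The other 52 have no gene listed in the annotation used here and are given by probe set only. Leaving out by symbol could not act on these 52, so genes of the families left out may be among them. A further 6 probe sets passed the thresholds and were left out by symbol: GH3.3, GH3.1, IAA29, IAA30, PUCHI and AT4G37295.

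Auxin is perceived by F-box receptors that bring Aux/IAA repressors to degradation, which frees auxin response factors to activate early auxin genes within minutes, without new protein synthesis. CHX stops ribosomes during elongation. In plants, as in animals and yeast, many early-response transcripts are known to accumulate when translation is blocked, a behaviour called superinduction, and both short-lived repressor proteins and slower decay of the messenger have been described as routes to it.

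The 5-day-old seedlings received 1 µM NAA, 10 µM CHX and 2 µM dexamethasone (DEX) in every combination for 4 h, with 0.1% DMSO as mock, and their roots were collected. The 8 groups (mock, DEX, NAA, NAA+DEX, CHX, DEX+CHX, NAA+CHX and NAA+DEX+CHX) had 2 arrays each, described in the labels as independent sets. All plants, mock included, were lbd16-1 lbd18-1 lbd33-1 triple mutants with a gLBD16:GR transgene. It encodes LBD16, which acts early in lateral root formation, joined to the hormone-binding part of the glucocorticoid receptor (GR), and LBD16's own regulatory region drives it. DEX lets such a fusion enter the nucleus, and no line without the fusion was analysed here. Each value comes from whole roots, so that fewer cells of a type and less RNA per cell cannot be told apart. Of 10 root markers, 1 was measured (EXP7, a root hair expansin, at 598 to 1382 on the 16 arrays), and of 10 leaf photosynthesis genes, LHCB4.2 lay at 3.67 to 154 and RCA at 279 to 491. The 8 arrays without CHX had median intensities of 150.9 to 174.7 and the 8 with CHX of 179.2 to 189.2, and the part of this shift in the CHX differences was not tested beyond the scaling alternatives given at the end.

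On the arrays that chose the members, NAA minus mock had a median of 2.31 (range 1.5 to 6.27, log2) and CHX minus mock a median of 3.37 (range 1.5 to 8.57). These values are a description, since they define the set. At the NAA threshold, AT5G16110 lay just inside at 1.5 and probe set 252131_at at 1.52, with AT1G19380 and 262041_at just outside at 1.48 each. At the CHX threshold, 259223_at (1.5) and AT5G16110 (1.55) were inside and AT2G17680 (1.47) and 259018_at (1.39) outside. At the intensity threshold, AT3G62960 (103) and AT1G44130 (109) were inside, and AT3G22060 (90.3) and AT3G46800 (89.4) were outside. All differences tested below are between the means of the 5 groups that played no part in the choice, DEX, NAA+DEX, DEX+CHX, NAA+CHX and NAA+DEX+CHX. The variance behind each SE and p was estimated from all 16 arrays, those of the choice included, and a fit on the 10 other arrays alone was an alternative.

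Within the members, the median intensity was 81 in mock and 81.9 in DEX roots, 557 with NAA and 518 with NAA+DEX. With CHX it was 1476, with DEX+CHX 1318, with NAA+CHX 1629 and with NAA+DEX+CHX 1580. The mock, NAA and CHX medians were set apart by the choice of members. Among the 5 groups not used for the choice, DEX gave the lowest mean for 105 of the 106 members. Only DEX among these 5 had neither NAA nor CHX, so the choice of members favours this count. The highest mean was in NAA+CHX for 31 members, in NAA+DEX+CHX for 30, in NAA+DEX for 23 and in DEX+CHX for 22. The matching counts over all probe sets were not made. Since probe sets differ in brightness, levels are compared between treatments only, not between genes.

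**Figure D1:**
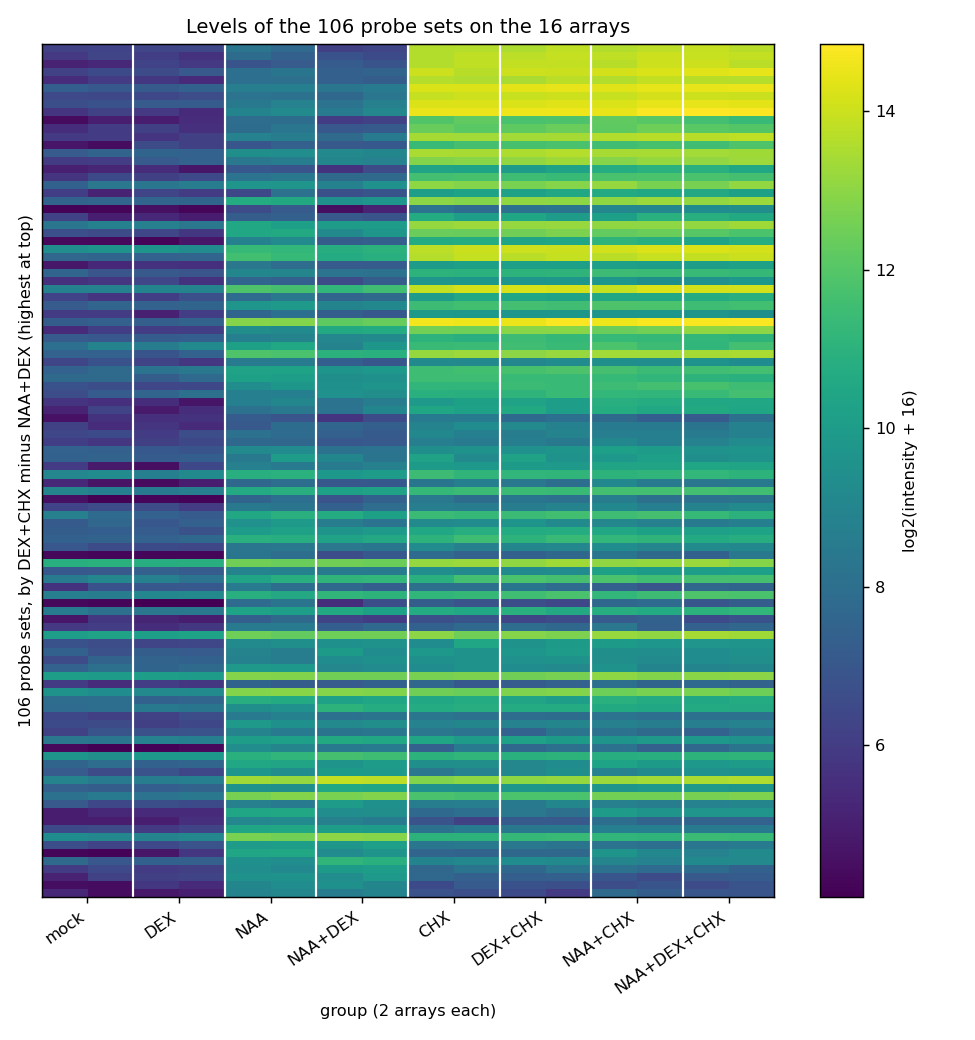
Heat map of log2(intensity + 16) for the 106 member probe sets (rows, ordered by DEX+CHX minus NAA+DEX) on the 16 arrays (columns, 2 per group, white lines between groups). The 4 mock and DEX arrays are darker than the others in most rows, though not dark in every row. Probe set 262045_at, for example, read 1860 and 2001 in mock and 1769 and 1804 with DEX. The upper rows are brighter in all 8 CHX arrays than in the NAA arrays, and the lowest rows are brightest in NAA and NAA+DEX.

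Annotated members show the pattern most directly. EXO (EXORDIUM, AT4G08950), which promotes cell expansion and is known as a brassinosteroid-responsive gene, measured 185 and 172 on the mock arrays, 163 and 178 with DEX, 3087 and 2507 with NAA, and 1640 and 1862 with NAA+DEX. With CHX its arrays read 12824 and 15325, with DEX+CHX 13608 and 15449, with NAA+CHX 13621 and 15578, and with NAA+DEX+CHX 14998 and 16317. On the arrays outside the choice, both DEX+CHX arrays were above both NAA+DEX arrays, and the NAA+DEX+CHX arrays overlapped those of DEX+CHX.

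ARL (ARGOS-like, AT2G44080), a relative of the organ-size regulator ARGOS that promotes cell expansion, read 127 and 178 in mock, 159 and 172 with DEX, 813 and 913 with NAA, and 478 and 532 with NAA+DEX. The CHX arrays of ARL read 2827 and 3056 alone, 3178 and 2959 with DEX, 3682 and 3512 with NAA, and 2912 and 3031 with both. On the arrays outside the choice, all 6 of ARL with CHX were above all 4 without it.

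EEL (ENHANCED EM LEVEL, AT2G41070), a bZIP transcription factor of the abscisic acid response in seeds, read 112 and 79.8 in mock, 73.4 and 66.5 with DEX, 301 and 324 with NAA, and 313 and 289 with NAA+DEX. Its CHX arrays read 614 and 428 alone, 504 and 527 with DEX, 617 and 495 with NAA, and 583 and 534 with both. The step from auxin to CHX was smaller in EEL than in EXO or ARL, though its DEX+CHX arrays were again above its NAA+DEX arrays.

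AT1G59740 (NPF4.3), of the NRT1/PTR family of nitrate and peptide transporters, read 427 and 216 in mock, 160 and 127 with DEX, 1476 and 1916 with NAA, and 1649 and 1166 with NAA+DEX. With CHX it read 2694 and 2421 alone, 2714 and 3057 with DEX, 2860 and 3274 with NAA, and 2488 and 2030 with both. On the arrays outside the choice, its mean was 1408 with NAA+DEX and 2886 with DEX+CHX, and the arrays of these groups did not overlap.

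SAL2 (AT5G64000), a relative of the bisphosphate nucleotidase SAL1, read 51.1 and 39.3 in mock, 53.6 and 69.7 with DEX, 188 and 181 with NAA, and 114 and 121 with NAA+DEX. Its CHX arrays read 396 and 346 alone, 396 and 330 with DEX, 535 and 406 with NAA, and 447 and 604 with both. SIS (Salt Induced Serine rich, AT5G02020) read 55.6 and 15.6 in mock, 22.4 and 13.9 with DEX, 136 and 150 with NAA, and 119 and 101 with NAA+DEX. SIS then read 1682 and 1108 with CHX, 1397 and 1037 with DEX+CHX, 1116 and 1938 with NAA+CHX, and 1877 and 1550 with NAA+DEX+CHX. SAL2 and SIS were weak without CHX, near the pseudocount of 16 for SIS in DEX roots, so their fold changes are understated on the log2(intensity + 16) scale.

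**Figure D2:**
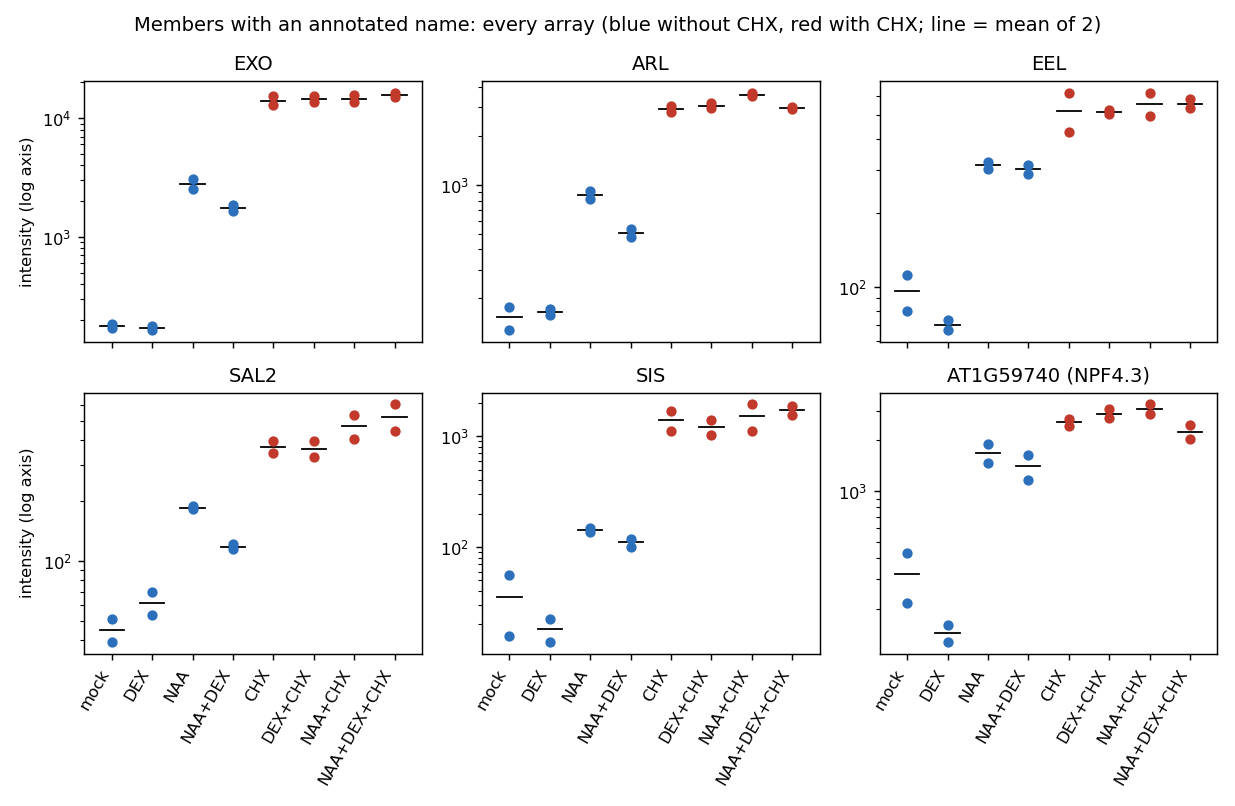
Intensity on a log axis (arbitrary units) of EXO, ARL, EEL, SAL2, SIS and AT1G59740 (NPF4.3) on every array of the 8 groups; blue points lack CHX, red points have it, and lines are means of 2 arrays. In each gene every CHX array lies above every array without CHX, in part because the mock, NAA and CHX arrays chose these genes; EXO goes from 163 to 185 in mock and DEX arrays to 12824 or more with CHX.

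Without CHX and with DEX, auxin raised most members again, between group means from arrays that had not chosen them. NAA+DEX was higher than DEX for 98 members and lower for none (adjusted p under 0.05, limma), against 14.1% of all probe sets called higher and 9.82% called lower. The median difference was 1.90 over the members (range -0.14 to 5.17, log2) and 0.08 over all probe sets. In 103 members both NAA+DEX arrays were above both DEX arrays. How often arrays separate in this way over all probe sets was not counted, here or in the comparisons below.

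Among listed genes the largest auxin rise was that of AT4G37290, from 49.5 and 51.3 with DEX to 1567 and 1678 with NAA+DEX (24.7-fold, log2 difference 4.62, SE 0.19, adjusted p = 7.4e-08, limma). AT3G51410 went from 43.7 and 62.7 to 1065 and 1044 (15.6-fold, 3.97, SE 0.16), and AT1G60010 from 550 and 570 to 7499 and 7085 (12.7-fold, 3.66, SE 0.14). For AT2G23060 the DEX arrays read 41 and 26.1 and the NAA+DEX arrays 702 and 502 (12.4-fold, SE 0.25 on the log2 scale). In none of these genes did the arrays of the 2 groups overlap.

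The annotated members all rose with auxin as well: EXO 9.45-fold (log2 3.24, SE 0.15, adjusted p = 1.9e-07), AT1G59740 8.82-fold (3.14, SE 0.28, adjusted p = 2e-05), SIS 3.72-fold (1.89, SE 0.37), EEL 3.69-fold (1.88, SE 0.19), ARL 2.87-fold (1.52, SE 0.15) and SAL2 1.72-fold (0.79, SE 0.19, adjusted p = 0.013). Calls on the smaller rises depended on single arrays. SAL2 did not pass without DEX replicate 1 (adjusted p = 0.096), NAA+DEX replicate 1 (0.051) or NAA+DEX replicate 2 (0.068). AT5G39580 rose 1.53-fold (adjusted p = 0.034), and its call ended without DEX replicate 1 (0.25), NAA+DEX replicate 1 (0.084) or NAA+DEX replicate 2 (0.15), and with median centring (0.11) or quantile normalization (0.12). AT1G44130 rose 2.01-fold (adjusted p = 0.027), and its call ended without DEX replicate 2 (0.2) or NAA+DEX replicate 2 (0.21), with median centring (0.05) or quantile normalization (0.059), and in fits on fewer arrays (0.063 and 0.17).

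In 8 members NAA+DEX did not pass the test against DEX. AT3G62960, a member just inside the intensity threshold, read 7.37 and 3.08 with DEX and 6.45 and 19.9 with NAA+DEX (log2 difference 0.43, 95% interval -0.11 to 0.97), although its NAA arrays without DEX read 76.6 and 129. AT4G21780 gave 0.48 (-0.25 to 1.21), and AT3G15450 gave 1.37 (0.28 to 2.46, adjusted p = 0.068) with NAA+DEX arrays of 512 and 282. AT3G15450 passed in 5 alternative settings (0.018 to 0.034). Probe set 259439_at, named after its values were seen, was the 1 member with both NAA+DEX arrays (54.4 and 64.7) below both DEX arrays (65.1 and 69.3), with a difference of -0.14 (SE 0.17). It had read 280 and 202 on the NAA arrays that chose it.

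CHX together with DEX raised every member relative to DEX alone, again between group means from arrays outside the choice. The DEX arrays are also the reference of the auxin comparison above, so the 2 comparisons share them. DEX+CHX was higher than DEX for 106 members and lower for none, against 24.2% of all probe sets called higher and 26.6% called lower. The median difference was 3.46 (range 1.03 to 8.97, log2) over the members and -0.02 over all probe sets. Both DEX+CHX arrays were above both DEX arrays in all 106, without a count over all probe sets to set beside it.

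Rises of over 100-fold were among them. AT2G22880 went from 59.9 and 42.1 with DEX to 14887 and 14972 with DEX+CHX (225-fold, log2 7.81, SE 0.20, adjusted p = 1.5e-10, limma). AT5G39580 went from 79.7 and 121 to 16741 and 16459 (145-fold, 7.18, SE 0.19), and AT4G37290 from 49.5 and 51.3 to 7773 and 7878 (118-fold, 6.88, SE 0.19). EXO followed at 77.8-fold (6.28, SE 0.15, adjusted p = 1.2e-10) and AT2G47550 at 43.8-fold, from 178 and 174 to 8445 and 8333. AT4G27280 rose 38.3-fold, AT2G41090 35.7-fold and AT2G18690 23.2-fold.

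The other annotated members rose 36-fold (SIS, log2 5.17, SE 0.37), 18.2-fold (AT1G59740, 4.19, SE 0.28), 17-fold (ARL, 4.09, SE 0.15), 6.19-fold (EEL, 2.63, SE 0.19) and 4.89-fold (SAL2, 2.29, SE 0.19). The smallest rise of a listed gene was that of AT4G21780, from 112 and 115 to 290 and 214 (2.05-fold, adjusted p = 0.022). Its call ended without DEX replicate 1 (adjusted p = 0.078), DEX replicate 2 (0.072) or DEX+CHX replicate 1 (0.13), and with median centring (0.072) or quantile normalization (0.079). Other small rises were those of AT2G23060, from 41 and 26.1 to 96.4 and 87.8 (2.2-fold, adjusted p = 0.0024), and of AT5G16110, from 887 and 893 to 1937 and 2100 (2.24-fold).

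In these roots the CHX level exceeded the auxin level for most members. The DEX+CHX mean was above the NAA+DEX mean in 80 members and below it in 26. The ratio of DEX+CHX to NAA+DEX had a median of 2.44 (range 0.139 to 220) and was above 10 in 22 members. How often this order held over all probe sets was not counted. On the arrays of the choice, 2188 probe sets passed the CHX minus mock threshold and 255 the NAA minus mock threshold. Whether members differ in this order from other probe sets was not tested. For 15 members the DEX+CHX mean was over 10000, from 10508 to 26112, where the same probe sets had read 32.9 to 700 with DEX. Of these, AT2G18690, AT2G22880, AT4G27280, AT5G39580 and EXO have a listed gene. The brightest probe set of any array measured 27841 to 39140, so that these members lay in the upper part of the range the arrays reported.

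When CHX was already present, auxin changed few members. NAA+DEX+CHX was higher than DEX+CHX for 4 members and lower for none, against 0.642% of all probe sets called higher and 0.536% called lower. Of the members, 18 had an unadjusted limma p under 0.05, as did 2820 of all probe sets. The median difference was 0.09 over the members (range -0.83 to 1.48, log2) and 0.00 over all probe sets after rounding. The 95% interval of the difference lay between -1 and 1 for 86 members and had an upper bound under 1 for 93. Arrays of the 2 groups overlapped in 41 members, and the share over all probe sets was not counted. A p that misses the threshold does not show that auxin had no effect, and the typical interval reached 0.44 to either side of the difference.

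Of the 4 members called, AT3G42800 and AT3G62960 met the naming criteria given at the end. Those criteria include a high value in this same comparison, the only criterion that AT3G42800 met. The other members called are named after their values were seen. AT3G42800 rose from 588 and 602 with DEX+CHX to 1090 and 1114 with NAA+DEX+CHX (1.83-fold, log2 0.87, SE 0.13, adjusted p = 0.015, limma), and AT3G62960 from 269 and 286 to 625 and 661 (2.25-fold, 1.17, SE 0.24, adjusted p = 0.05, just under the threshold before rounding). Probe set 261766_at went from 325 and 249 to 817 and 826 (2.79-fold, 1.48, SE 0.18, adjusted p = 0.0056), and 262099_s_at from 3538 and 3511 to 6472 and 6983 (1.90-fold, 0.93, SE 0.16, adjusted p = 0.025). In each of the 4, both arrays with NAA were above both without it. With DEX+CHX replicate 2 or NAA+DEX+CHX replicate 2 left out the count was 0, and with replicate 1 of either group left out it was 1. The adjusted p of AT3G42800 was 0.075 to 0.099 when any of these 4 arrays was left out, and AT3G62960 lost its call in 17 alternative settings (0.051 to 0.35). Without DEX, as values only since the CHX arrays chose the set, 261766_at read 203 and 243 with CHX and 990 and 785 with NAA+CHX, and AT3G62960 read 274 and 213 with CHX and 522 and 524 with NAA+CHX.

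None of the 6 annotated members passed this test. EXO differed by 0.11 (95% interval -0.23 to 0.45, log2), EEL by 0.11 (-0.31 to 0.53), ARL by -0.05 (-0.38 to 0.29), AT1G59740 by -0.36 (-0.98 to 0.26), SIS by 0.50 (-0.32 to 1.32) and SAL2 by 0.51 (0.08 to 0.93, adjusted p = 0.3). Among listed genes the lowest values belonged to AT2G39980 (-0.83, adjusted p = 0.14), which read 784 and 583 with DEX+CHX and 340 and 410 with NAA+DEX+CHX and passed under 2 alternatives (0.044 with a pseudocount of 64, 0.038 with limma's trended, robust prior), and to AT3G19200 (-0.50, adjusted p = 0.27). The 15 members over 10000 had a median of 0.09 (range -0.27 to 0.39), and the other 91 had the same median of 0.09. On the arrays without DEX, again as values only, NAA+CHX minus CHX had a median of 0.12 (range -0.98 to 1.91).

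**Figure D3:**
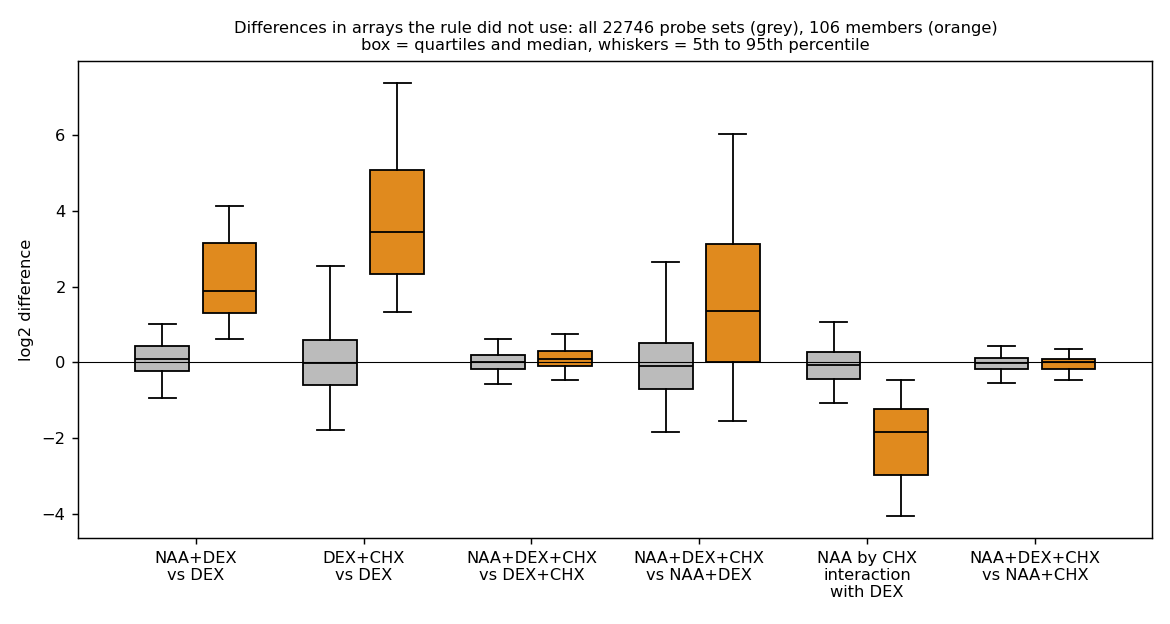
Box plots of the log2 difference in the 6 comparisons between group means from arrays outside the choice, for all 22746 probe sets (grey) and the 106 members (orange); boxes give quartiles and median, whiskers the 5th to 95th percentile. Member medians are 1.90 and 3.46 for NAA and CHX added to DEX, 0.09 for NAA added to DEX+CHX, 1.37 for CHX added to NAA+DEX, -1.85 for the interaction and 0.02 for DEX added to NAA+CHX.

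The interaction tests directly whether the auxin difference depends on CHX. It is the difference NAA+DEX+CHX minus DEX+CHX, minus the difference NAA+DEX minus DEX. It was below 0 and called for 83 members and above 0 and called for none, against 4.95% of all probe sets called below and 4.32% called above. The median was -1.85 over the members and -0.07 over all probe sets, and 86 members had a value of -1 or less. Members were chosen for a rise with NAA in the absence of CHX, and no such rise was required with CHX present. Values below 0 are therefore favoured by the choice, and all probe sets are not a like reference.

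AT4G37290 had the lowest interaction of a listed gene, at -4.52 (SE 0.27, adjusted p = 5.9e-06, limma), since NAA+DEX stood 24.7-fold above DEX while NAA+DEX+CHX (8603 and 8174) lay within 1.07-fold of DEX+CHX. AT1G60010 gave -3.89 (SE 0.20), AT3G51410 -3.86 (SE 0.23), AT2G23060 -3.65 (SE 0.35), AT1G59740 -3.50 (SE 0.40) and EXO -3.13 (SE 0.22). EEL gave -1.77 (SE 0.27, adjusted p = 0.0021) and ARL -1.56 (SE 0.21, adjusted p = 0.0011).

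SIS (-1.40, SE 0.53, adjusted p = 0.13, and 0.043 and 0.044 under 2 alternatives) and SAL2 (-0.28, SE 0.27, adjusted p = 0.6) did not pass. Nor did AT3G62960 (0.74, SE 0.35) and AT5G39580 (-0.26, SE 0.26), whose auxin difference with DEX was small to begin with. Of the calls made, that of AT2G22880 (-0.99, adjusted p = 0.048) ended in 21 alternative settings, AT2G41090 (-1.23, adjusted p = 0.028) and AT5G47440 (-2.72, adjusted p = 0.033) in 9 each, and AT5G09800 (-1.35, adjusted p = 0.016) in 4, in each case with the same sign. For AT5G09800 the adjusted p was 0.058 without DEX replicate 1, 0.056 without NAA+DEX replicate 1, 0.066 without DEX+CHX replicate 2 and 0.059 in the fit that lacked NAA+DEX+CHX replicate 1. For AT2G22880, AT2G41090 and AT5G47440, adjusted p over the alternatives that ended the call lay at 0.051 to 0.16, 0.063 to 0.094 and 0.054 to 0.11.

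**Figure D4:**
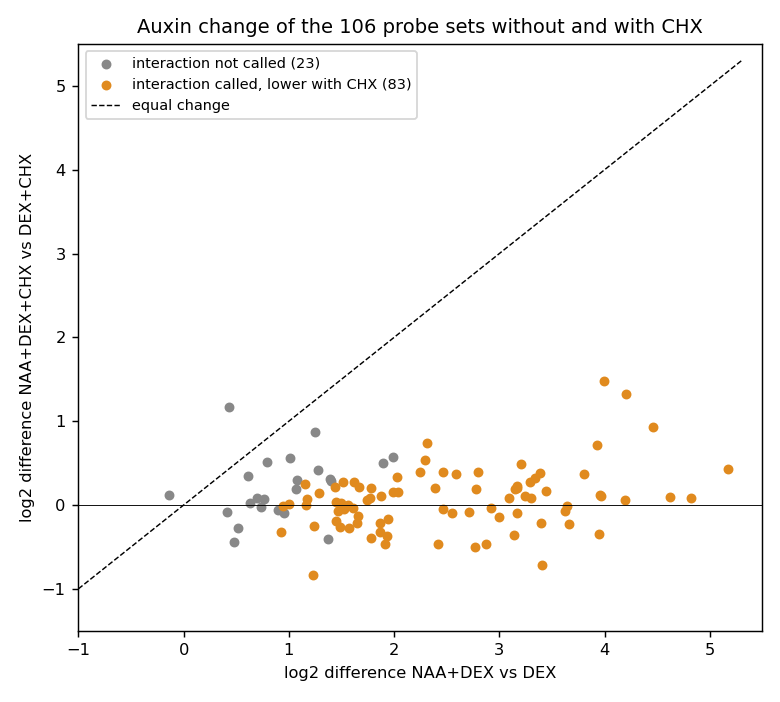
Log2 difference NAA+DEX vs DEX (x axis) against NAA+DEX+CHX vs DEX+CHX (y axis) for the 106 members; orange points have a called interaction (83), grey points do not (23), and the dashed line marks equal change. No array is shared between the axes; points spread from -0.14 to 5.17 along x and stay between -0.83 and 1.48 along y.

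The loss of the auxin difference under CHX was also seen in auxin-raised probe sets that stayed below the CHX threshold of the choice. There were 119 probe sets past the NAA thresholds with CHX minus mock under 1.5, here with no symbol left out. They too were chosen by a rise with NAA in the absence of CHX. Some still changed with CHX, as DEX+CHX was called higher than DEX for 35 and lower for 29 (median -0.04). In these, NAA+DEX was called higher than DEX for 111 (median 2.15, log2), NAA+DEX+CHX was called higher than DEX+CHX for 3 (median 0.16), and the interaction was called below 0 for 99 (median -1.99). With CHX on top of auxin, NAA+DEX+CHX was called higher than NAA+DEX for 1 of them and lower for 114 (median -2.21), while the members, given next, mostly stood higher. No test of the difference between the 2 sets was made.

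Adding CHX to NAA+DEX divided the members into 3 classes. NAA+DEX+CHX was higher than NAA+DEX for 67 members, lower for 14 and not called for 25, against 22.3% of all probe sets called higher and 29.8% called lower. The median difference was 1.37 over the members and -0.10 over all probe sets. In 76 members both NAA+DEX+CHX arrays were above both NAA+DEX arrays, and in 23 they were below. The matching shares over all probe sets were not counted.

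In the 67 members that rose, the median intensity was 68.9 with DEX, 331 with NAA+DEX, 2700 with DEX+CHX and 2895 with NAA+DEX+CHX. AT5G39580 went from 151 and 167 with NAA+DEX to 20269 and 22228 with NAA+DEX+CHX (121-fold, log2 6.92, SE 0.19, adjusted p = 2.3e-10, limma). AT2G22880 went from 134 and 102 to 16549 and 13707 (113-fold), AT1G44130 from 33.9 and 76.3 to 1905 and 1480 (25-fold) and AT3G62960 from 6.45 and 19.9 to 625 and 661 (23.2-fold). AT2G41090 rose 15.2-fold, SIS 13.7-fold, EXO 8.88-fold (3.15, SE 0.15), ARL 5.74-fold (2.52, SE 0.15), SAL2 4.03-fold (2.01, SE 0.19) and EEL 1.81-fold (0.86, SE 0.19, adjusted p = 0.0025). AT3G19200 (1.39-fold, adjusted p = 0.05 after rounding) lost its call in 17 alternative settings. These include the fits without either NAA+DEX array (0.24 and 0.054) and without either NAA+DEX+CHX array (0.078 and 0.2). AT5G47440 (3.33-fold, adjusted p = 0.011) lost its call without NAA+DEX replicate 1 (0.055) and with a pseudocount of 1 (0.11).

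The 14 members that fell had a median intensity of 71 with DEX, 1010 with NAA+DEX, 375 with DEX+CHX and 391 with NAA+DEX+CHX. Of these, 7 have a listed gene: AT1G33790, AT2G23060, AT3G09280, AT3G51410, AT3G54000, AT3G63240 and AT5G16110. AT2G23060 fell from 702 and 502 with NAA+DEX to 80.5 and 103 with NAA+DEX+CHX (log2 -2.51, SE 0.25, adjusted p = 5.5e-06), and DEX+CHX alone read 96.4 and 87.8. AT1G33790 fell from 865 and 1120 to 299 and 343 (-1.57, SE 0.19), and AT3G51410 from 1065 and 1044 to 364 and 347 (-1.53, SE 0.16). In all 3 the level with both treatments was close to that with DEX+CHX and below that with NAA+DEX.

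Smaller falls were those of AT3G63240 (-0.81, SE 0.26, adjusted p = 0.02), AT3G54000 (-0.67, SE 0.13, adjusted p = 0.00098) and AT5G16110 (-0.52, SE 0.14, adjusted p = 0.0082). AT3G63240 did not pass without NAA+DEX replicate 1 (0.16), NAA+DEX+CHX replicate 1 (0.091) or NAA+DEX+CHX replicate 2 (0.052), and AT5G16110 did not pass without NAA+DEX replicate 1 (0.068).

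For the 25 members not called, the median intensity was 694 with NAA+DEX, 683 with DEX+CHX and 715 with NAA+DEX+CHX, against 132 with DEX. AT1G60010 was of this kind, with 7499 and 7085 on the NAA+DEX arrays, 7017 and 7390 with DEX+CHX and 6616 and 5722 with NAA+DEX+CHX (-0.24, 95% interval -0.55 to 0.06). AT5G62280 read 1237 and 1529, 2100 and 2592, and 1632 and 1738 in the same order (0.29, -0.11 to 0.69), and AT4G35210 read 140 and 201, 228 and 195, and 152 and 181 (-0.01, -0.65 to 0.62). These intervals are for NAA+DEX+CHX minus NAA+DEX. In AT5G62280 both DEX+CHX arrays were above both NAA+DEX arrays. AT1G59740, also not called here (0.69, 0.07 to 1.31, adjusted p = 0.061), passed in 9 alternative settings (0.016 to 0.043).

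**Figure D5:**
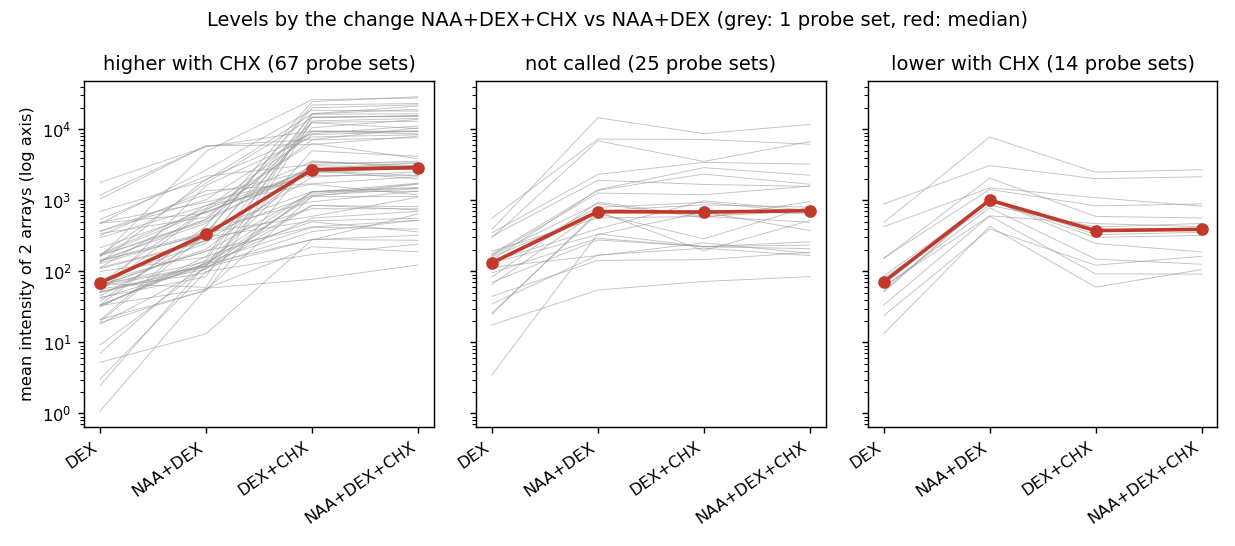
Mean intensity of 2 arrays (log axis) with DEX, NAA+DEX, DEX+CHX and NAA+DEX+CHX for members higher (67), not called (25) and lower (14) in NAA+DEX+CHX vs NAA+DEX; grey lines are single probe sets and red lines medians. In all 3 panels the medians with DEX+CHX and NAA+DEX+CHX are close (2700 and 2895, 683 and 715, 375 and 391), and the place of the NAA+DEX median relative to NAA+DEX+CHX is set by how the panels were defined.

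DEX itself was tested on members in 1 comparison whose group means were free of the arrays that made the choice. NAA+DEX+CHX was called higher than NAA+CHX for 0 members and lower for 0, against 0.0923% of all probe sets called higher and 0.0176% called lower by limma. Of the members, 5 had an unadjusted p under 0.05, as did 1304 of all probe sets. The median was 0.02 (range -0.66 to 0.55, log2), and the 95% interval lay between -1 and 1 for 93 members. AT4G37290 had the largest value, at 0.55 (8603 and 8174 against 5389 and 6039, adjusted p = 0.67).

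The remaining DEX differences use chosen arrays and are given as values. DEX minus mock had a median of 0.03 (range -1.01 to 1.74) and DEX+CHX minus CHX a median of 0.04 (range -0.65 to 0.64). NAA+DEX minus NAA had a median of -0.42 (range -2.03 to 1.57), with 78 members below 0. Members were picked for a high NAA value, which favours a lower value on other auxin arrays. This choice and an effect of DEX cannot be told apart in the last difference. In AT4G37290 the NAA+DEX arrays (1567 and 1678) were nevertheless above the NAA arrays (653 and 596), and the same held for AT3G54000 (1495 and 1360 against 738 and 675) and AT5G16110 (3293 and 2888 against 1910 and 2262).

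The members were alike in profile to differing degrees. Against the median profile of all members over the means of the 5 groups not used for the choice, Pearson's r of the log2 values ranged from 0.14 to 0.999, with a median of 0.95. It was above 0.9 in 76 members and under 0.5 in 6. As only 5 group means enter and the groups share the treatments, this is a description. The listed genes nearest the median profile were AT5G40540, AT5G47440, EEL, EXO and AT5G57340, and those farthest from it were AT2G23060 (0.23), AT1G33790 (0.47), AT4G21780 (0.58), AT3G51410 (0.64) and AT5G16110 (0.66). Of the last group, 4 are in the class that fell when CHX was added to NAA+DEX.

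AT5G40540 shows the common profile without extremes, with 344 and 394 in DEX, 1172 and 1242 in NAA+DEX, 2702 and 2596 in DEX+CHX and 3119 and 3020 in NAA+DEX+CHX. It rose 3.18-fold with auxin and 6.94-fold with CHX (adjusted p = 8.4e-06 and 1.5e-08, limma), and auxin on top of CHX gave 0.21 (95% interval -0.08 to 0.50). AT5G57340 read 139 and 202, 677 and 693, 2649 and 2562, and 2077 and 1937 in the same order, and auxin on top of CHX gave -0.37 (-0.71 to -0.04, adjusted p = 0.33).

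In the gene order of RefSeq assembly TAIR10.1, 2 pairs of members are direct neighbours, AT1G60000 with AT1G60010 and AT4G35200 with AT4G35210. AT1G60000, named after its values were seen, differed by 1.78 between NAA+DEX and DEX and by 1.49 between DEX+CHX and DEX, against 3.66 and 3.65 for AT1G60010. AT4G35200 gave 1.49 and 1.56 and AT4G35210 1.87 and 2.17. EEL (AT2G41070) and AT2G41090 are separated by 2 protein-coding genes.

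By symbol or synonym, no member was matched to 22 lists of hormone, transcription factor, calcium and peptide genes. This says little about the members, since 52 of them have no listed gene, and the Aux/IAA, GH3 and LBD symbols had been left out. Most other members carry only a locus code, so they may belong to these families without a match. Few listed genes could be matched to a probe set here (0 of 77 SAUR genes and 0 of 120 MYB factors, for example). Of 32 Aux/IAA repressor genes, 7 were measured, and with DEX auxin raised 4 and lowered 1 while CHX raised 3 and lowered 1. IAA30, which passed the member thresholds and was left out by symbol, differed by 3.94 with auxin and 5.12 with CHX, and by 0.23 with auxin on top of CHX. Of 10 GH3 genes, whose enzymes conjugate auxin to amino acids, 5 were measured. Auxin raised 3 of them and lowered none, and CHX raised 4 and lowered 1. For GH3.1 the differences were 5.23 with auxin, 5.13 with CHX and -0.06 with auxin on top of CHX.

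Over all probe sets, more were called with CHX than with auxin, as given above. Of the 7 WRKY transcription factors measured of 72, auxin raised 2 and CHX raised 5, and neither lowered any. Of the 7 touch and calcium-binding proteins measured of 64, auxin lowered 2 and raised none, and CHX raised 5 and lowered none, among them CML37 with a difference of 7.92. Of the 16 small secreted peptides measured of 127, auxin raised 2 and lowered 5, and CHX raised 4 and lowered 4. Of 6 measured genes of auxin synthesis and turnover, auxin raised none and lowered 1, and CHX raised 1 and lowered 2. Of the 4 measured lateral root initiation genes, auxin raised 4 and CHX 3. On top of CHX, auxin raised 1 lateral root initiation gene, LBD16 (0.74, adjusted p = 0.045, limma), and 1 of auxin synthesis and turnover, UGT84B1 (1.69, adjusted p = 0.012). None of the measured Aux/IAA, GH3, WRKY, calcium or peptide genes was called higher with auxin on top of CHX. Genes of these families without a matched probe set could not be assessed. Neither the LBD16 nor the UGT84B1 call was followed under the alternatives. Whether the LBD16 probe set reads the mutant gene, the gLBD16:GR transgene or both was not tested.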

How the data were processed

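The deposited table gives linear intensities, 1 for each probe set on each array, made by the authors with Affymetrix Expression Console 1.3, per the submitters' processing notes. How probes were summarised, background-corrected and scaled is not given in the sources used here. On every array the 2% trimmed mean was 500.05, so intensities had been scaled array by array. Labelling kits are not assigned to these arrays in the labels and could not be entered. Of 22810 probe sets, 64 controls were removed. Names came from the probe annotation and the RefSeq gene table of TAIR10.1: 13513 probe sets had 1 gene, 503 several and 8730 none listed. No coordinates are given, since that annotation names no build.

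All 16 arrays entered a group-means model of log2(intensity + 16) in limma 3.58.1 (R 4.3.3; 8 residual degrees of freedom), tested on simulated data. Tests were two-sided, with Benjamini-Hochberg adjustment over 22746 probe sets and calls at adjusted p under 0.05. Folds are on the log2(intensity + 16) scale, which understates changes of weak probe sets. A p-value reflects only the spread between these arrays, whose number limits precision. Same-numbered arrays were not treated as pairs: their deviations correlated at -0.06 to 0.07 over 28 pairs of groups.

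Members and gene lists were chosen with earlier results of these data known. Among members with 1 listed gene, those named are those with a symbol, the 5 highest and 5 lowest in each of the 6 comparisons, the 8 brightest, those at the thresholds and the 5 most and least like the median profile. The alternatives were other pseudocounts (1, 64), scalings, a filter, other arrays in the fit, variance priors, array weights, a replicate block and leaving out each array.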

Additional observations from a re-analysis of the deposited data

Results flagged for a closer look

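The auxin difference of 83 members was smaller with CHX than without it by the interaction test (limma, adjusted p under 0.05). Among the members named by symbol or for an extreme interaction, the log2 interaction was -4.52 for AT4G37290, -3.89 for AT1G60010, -3.86 for AT3G51410, -3.65 for AT2G23060, -3.50 for AT1G59740, -3.13 for EXO, -1.77 for EEL and -1.56 for ARL. These stand out because the same contrast, NAA against no NAA with DEX present, gave different sizes in the arrays without and with CHX. The choice of members by their rise with NAA in the absence of CHX favours such values. Auxin-raised probe sets below the CHX threshold, chosen by the same NAA thresholds, gave a median of -1.99 in the same test, against -1.85 in the members. With 2 arrays per group, single arrays that stand apart within a group could not be tested.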

How the results depend on the processing

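The 2 arrays per group limit the precision. Counts of called members stayed within 1.5 times of those reported under every alternative run in 5 of the 6 comparisons. The exception was NAA+DEX+CHX vs DEX+CHX, with 4 members called, where a pseudocount of 64 gave 8 (6 higher, 2 lower), an intensity trend with a robust prior gave 10 (8 higher, 2 lower), and a fit on only the arrays compared gave 0. For these changes the cause was not tested, beyond the fewer arrays in the last fit. Leaving out each array in turn gave 91 to 99 members called in NAA+DEX vs DEX, 104 to 106 in DEX+CHX vs DEX, 0 to 4 in NAA+DEX+CHX vs DEX+CHX, 74 to 81 in NAA+DEX+CHX vs NAA+DEX, 73 to 82 in the interaction and 0 to 0 in NAA+DEX+CHX vs NAA+CHX. With the replicate number as a block, the counts were 98, 106, 3, 80, 81 and 0 in the same order. Median centring moved the median of all probe sets from 0.08 to -0.05 in NAA+DEX vs DEX, from -0.02 to -0.23 in DEX+CHX vs DEX and from -0.07 to 0.04 in the interaction. It changed the split of higher and lower calls over all probe sets from 3203 and 2233 to 2296 and 2843, from 5513 and 6054 to 4515 and 7460, and in the interaction from 983 and 1125 to 1169 and 792. The members' counts under it were 93, 105 and 78. The choice of members depended on the pseudocount: 63 probe sets passed with 64 and 125 with 1, against 94 to 96 with other scalings and 102 to 124 when a mock, NAA or CHX array was left out, of which 93 to 104 were among the 106. Of the calls on the 34 named members, 28 of 31, 33 of 34, 0 of 2, 23 of 27 and 22 of 26 were kept under every alternative in the first 5 comparisons, none reversed, and 1, 0, 2, 3 and 2 members not called gained a call under at least 1 alternative. A planned search of promoters for motifs was not run.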
